A study of Mus musculus with 6 samples.

Results

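The Krüppel-like factor (Klf) genes measured here are 10 transcription factor genes: Klf2, Klf3, Klf4, Klf6, Klf7, Klf9, Klf10, Klf11, Klf13 and Klf16. They are 10 of the 55401 genes in the deposited count table and of the 15272 genes with enough counts to be tested. The 10 were picked by symbol with the counts of NETs-treated and control cells already known. Their levels and differences are therefore given as a description, with no p-value, and the side of the test threshold on which a member falls is given as a description too and counts as no test of it. The cells are mouse cells of WT genotype, labelled BMDM (bone marrow-derived macrophages), while their sample titles read BV2, the name of a microglial line of the mouse. Of the 6 samples, 3 were NETs-treated and 3 were Normal, called control here. NETs, neutrophil extracellular traps, are webs of DNA and granule proteins that neutrophils release. The sources used here do not give the dose of NETs, the length of exposure or whether the samples of a group were separate cultures. A p-value therefore reflects only how much these samples vary, and that variation may be technical. In bulk samples such as these, fewer cells of a type and less RNA per cell cannot be told apart.

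KLF proteins bind GC-rich and CACCC-containing DNA through a block of C2H2 zinc fingers at the carboxyl end, which is much alike in all of them. Their amino ends differ and recruit either acetyltransferases that favour transcription or corepressors such as SIN3A and CtBP that dampen it. In macrophages KLF2 is known as a brake on NF-kB-driven inflammatory genes, KLF4 as a factor of monocyte differentiation and alternative activation, and KLF6 as a factor that favours inflammatory gene expression. Many Klf transcripts are short-lived and respond quickly to stimuli, so that their level in a cell can change within a short time.

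The members were unlike each other upstream of their start sites. The bases before the annotated start of 4 of them are printed here because these genes stand for the different responses described next: Klf2 with the largest gain, Klf6 with the highest level, Klf9 with the clearest loss and Klf4 with overlapping groups. The bases come from RefSeq (GRCm38.p6), run 5′ to 3′ on the gene's own strand and end before the first transcribed base. Capitals mark matches, on either strand, to the MEF2 motif (CTA and TAG parted by any 4 bases), to CCAAT and to TATAAA.
Klf2, chr8:72318812-72319032, plus strand: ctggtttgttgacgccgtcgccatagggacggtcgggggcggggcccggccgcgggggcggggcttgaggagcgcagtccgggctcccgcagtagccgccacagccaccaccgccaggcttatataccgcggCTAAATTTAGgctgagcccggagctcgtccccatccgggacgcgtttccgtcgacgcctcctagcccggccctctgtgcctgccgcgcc
Klf4, chr4:55532476-55532725, minus strand: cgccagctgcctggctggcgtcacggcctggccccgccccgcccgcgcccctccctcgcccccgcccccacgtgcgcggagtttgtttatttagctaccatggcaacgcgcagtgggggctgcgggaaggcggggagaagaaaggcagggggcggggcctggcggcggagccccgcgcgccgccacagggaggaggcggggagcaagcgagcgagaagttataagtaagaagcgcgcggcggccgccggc
Klf6, chr13:5861239-5861481, plus strand: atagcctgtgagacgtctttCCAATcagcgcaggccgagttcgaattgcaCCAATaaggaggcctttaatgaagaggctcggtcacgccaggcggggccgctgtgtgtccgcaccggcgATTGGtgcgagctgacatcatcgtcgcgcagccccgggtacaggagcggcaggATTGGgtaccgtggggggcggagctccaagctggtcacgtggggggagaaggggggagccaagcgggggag
Klf9, chr19:23140976-23141225, plus strand: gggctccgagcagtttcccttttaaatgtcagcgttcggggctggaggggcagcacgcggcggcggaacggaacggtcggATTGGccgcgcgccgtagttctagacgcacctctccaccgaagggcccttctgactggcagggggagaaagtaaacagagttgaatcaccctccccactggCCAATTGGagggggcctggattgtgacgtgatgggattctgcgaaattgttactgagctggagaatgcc

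The Klf2 stretch held 1 match to the MEF2 motif and no CCAAT, the Klf6 stretch held 4 CCAAT matches, the Klf9 stretch held 3, of which 1 pair overlaps, and the Klf4 stretch held none of these motifs. RefSeq gave a promoter for 8 of the 10 members, all but Klf10 and Klf16, and the motifs were counted on both strands over the 250 bases before the RefSeq start. Klf2 was the 1 of these 8 with the MEF2 motif, which occurs in 3.20% of 32851 promoters. CCAAT occurred in Klf6 (4 matches), Klf9 (3), Klf11 (2) and Klf13 (2), and in 33.8% of all promoters. The CACCC core that KLF proteins bind was present 5 times before Klf3, 3 times before Klf7 and 1 time each before Klf2, Klf9 and Klf13, and in 52.0% of all promoters. The GC box GGGCGG, which can lie next to or over other GC-rich motifs, was found in 7 of the 8 members, with 6 matches in Klf3 and none in Klf9, and in 32.7% of all promoters. The NF-kB motif, GGG and CC parted by any 5 bases, had 5 matches in Klf2, 4 in Klf4, 3 each in Klf11 and Klf13, 2 in Klf3 and 1 in Klf6, and occurs in 45.8% of all promoters. The E-box CACGTG was seen in Klf4, Klf6 and Klf11 (6.02% of all promoters), and the AP-1 motif TGANTCA in Klf9 (6.75%). None of the 8 held the CRE TGACGTCA (1.55% of all promoters), the glucocorticoid receptor motif AGAACA (16.1%) or TATAAA (12.4%). The 8 promoters ran from 59.2% GC in Klf7 to 78.4% in Klf3, against a median of 52.4% over all promoters, and GC-rich motifs are met more often in such sequence. These matches are descriptions of letters and say nothing of binding.

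Each library held between 39994613 and 44274445 counts. Levels are given as CPM (counts in a library scaled to a fixed total) scaled by TMM, a factor per library that evens out composition. Differences are log2 fold changes of NETs-treated over control with their standard error (SE) from edgeR's quasi-likelihood fit over all 15272 genes, with 3 samples per group. A gene is said to pass the test at a Benjamini-Hochberg adjusted p under 0.05. Replicate libraries differed from each other by more than sampling noise, most between NETs-treated replicates 1 and 3, where the chi-square per gene was 77.2 against 9.77 to 32.8 for the other pairs. Macrophage markers (8 of 8 tested) summed to 5115 to 5277 CPM in control and 4978 to 5169 CPM in NETs-treated libraries, but by edgeR 7 of the 8 fell and Lyz2, which makes up most of the sum, rose from 2978 to 3526 CPM on average. Microglia markers (6 of 8 tested) summed to 723 to 749 CPM in control and 288 to 315 CPM in NETs-treated libraries, with Sall1 at 0 in every library. Neutrophil markers (2 of 10 tested) summed to 8.04 to 10.6 CPM and 8.89 to 14.4 CPM, with Ltf, Ly6g, Mpo, Ngp, Retnlg and S100a9 at 0. This sum hides opposite changes of the tested genes by edgeR. On average S100a8 rose from 2.68 to 11.7 CPM and Csf3r fell from 6.21 to 0.127 CPM. T cell markers (0 of 6 tested, Cd3d, Cd3e, Cd3g and Trac at 0) reached at most 0.330 CPM and fibroblast markers (0 of 5 tested, Col1a2, Col3a1 and Dcn at 0) at most 0.0930 CPM in any library. Endothelial markers (2 of 6 tested) summed to 66.7 to 71.7 CPM in control and 28 to 32.0 CPM in NETs-treated libraries, with Cdh5 and Tie1 at 0. Nearly all of that sum was Vwf, at 68.2 and 29.1 CPM on average, and Pecam1, the other tested gene, was at 0.672 and 0.802 CPM with overlapping groups. The part of the lower macrophage and microglia markers, of S100a8 and Csf3r and of Vwf in the Klf differences was not tested.

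Of the 10 Klf genes, 7 lay past the threshold of the fit as higher in NETs-treated cells, 1 lay past it as lower and 2 lay short of it. Over all genes tested 25.5% passed as higher, 27.2% as lower and 52.7% in either direction. The values of the groups did not overlap for 8 of the 10, and for 62.4% of all genes tested. Since the 10 were chosen with this comparison known, nothing is read from these shares. The median log2 fold change of the 10 was 0.70, beside -0.02 over all genes tested. Differences ran from a 15.5-fold higher level of Klf2 to a 1.63-fold lower level of Klf9.

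**Figure D1:**
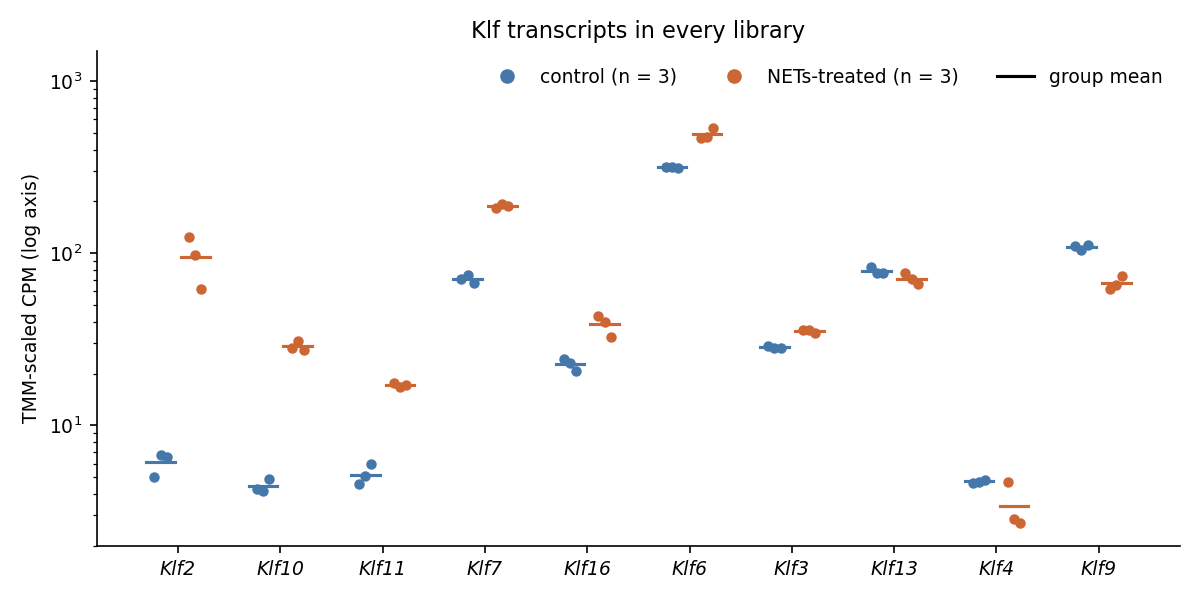
TMM-scaled CPM (log axis) of the 10 Klf genes in each of the 3 control and 3 NETs-treated libraries, with points for libraries and short lines for group means. Klf2, Klf10, Klf11, Klf7, Klf16, Klf6 and Klf3 lie higher in all NETs-treated libraries, Klf9 lies lower in all of them, and Klf4 and Klf13 overlap.

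The activator group holds Klf2, Klf4, Klf6 and Klf7, whose proteins recruit acetyltransferases. Klf2 (ENSMUSG00000055148.7; GRCm38, chr8:72319033-72321656, plus strand), the NF-kB brake of quiescent myeloid, T and endothelial cells, stood at 5.0, 6.75 and 6.54 CPM in control libraries and at 125, 97.3 and 62.1 CPM after NETs. All NETs-treated libraries were far above the control, and they also spread widely among themselves, from replicate 1 at the top to replicate 3 at the bottom. Means were 6.10 ± 0.957 and 94.7 ± 31.4 CPM (SD, n = 3 each). The log2 fold change was 3.96 ± 0.26 (SE), with 3.73 when NETs-treated replicate 1 was left out and 4.19 when replicate 3 was left out. This was the largest difference among the members and it started from one of the lower control levels.

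Klf6 (ENSMUSG00000000078.7; chr13:5861482-5870394, plus strand), an early-response gene also studied as a tumour suppressor and known in macrophages as a partner of NF-kB signalling, was the most abundant member in both groups. Its values were 316, 319 and 312 CPM in control libraries and 468, 476 and 535 CPM after NETs. The control libraries were nearly equal and the groups lay far apart, with NETs-treated replicate 3 highest. Means of 315.5 ± 3.07 and 493 ± 36.9 CPM (SD, n = 3) gave a log2 fold change of 0.64 ± 0.07 (SE), a 1.56-fold higher level. In ratio this was modest beside Klf2. In CPM the gain was larger than that of Klf2, but CPM is not scaled to gene length. Per kb of exons the gain of Klf2 was the larger one, as given below.

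Klf7 (ENSMUSG00000025959.13; chr1:64029447-64122282, minus strand), known for roles in neurons and fat cells, had 70.7, 74.6 and 67.2 CPM in control libraries and 183, 192 and 189 CPM after NETs. Every NETs-treated library was above every control library and the spread within both groups was small. The means were 70.8 ± 3.72 and 188 ± 4.45 CPM (SD, n = 3), and the log2 fold change was 1.41 ± 0.07 (SE), a 2.66-fold higher level. An antisense gene, Gm13748, overlaps Klf7 and had 8 to 41 counts per library against at least 3038 for Klf7, so reads that may have been exchanged between them were few. Gm26649, another gene on the opposite strand, also overlaps Klf7. Its identifier was not found among the deposited counts, so reads exchanged with it are unknown.

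Klf4 (ENSMUSG00000003032.8; chr4:55527143-55532466, minus strand), a factor of monocyte differentiation and alternative macrophage activation, stood at 4.65, 4.71 and 4.82 CPM in control libraries and at 4.68, 2.87 and 2.71 CPM after NETs. NETs-treated replicate 1 lay within the control range while the other NETs-treated libraries lay well below it. The means were 4.73 ± 0.0884 and 3.42 ± 1.10 CPM (SD, n = 3), and the log2 fold change of -0.47 ± 0.25 (SE) lay short of the threshold. Without NETs-treated replicate 1 it was -0.74 and lay past it, and without replicate 3 it was -0.32, so the Klf4 value rested on which NETs-treated libraries were kept. Klf2 and Klf4, which are often grouped as related brakes in endothelium, thus had unlike values here, with Klf2 higher in every NETs-treated library and Klf4 higher than the control range in none.

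The group whose proteins bind SIN3A holds Klf9, Klf10, Klf11, Klf13 and Klf16. Klf10 and Klf11 are the TGF-beta-inducible early genes and their products repress genes of growth. Klf10 (ENSMUSG00000037465.10; chr15:38291463-38300706, minus strand) had 4.26, 4.15 and 4.89 CPM in control libraries and 28, 31.0 and 27.2 CPM after NETs. The groups were widely separated and each was narrow. With means of 4.43 ± 0.40 and 28.8 ± 1.99 CPM (SD, n = 3), its log2 fold change was 2.70 ± 0.12 (SE), a 6.48-fold higher level and the next largest after Klf2.

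Klf11 (ENSMUSG00000020653.12; chr12:24651274-24662789, plus strand) stood at 4.53, 5.06 and 5.95 CPM in control libraries and at 17.6, 16.6 and 17.1 CPM after NETs. It was higher in each NETs-treated library, and the control libraries varied more than the NETs-treated ones. Means of 5.18 ± 0.715 and 17.1 ± 0.478 CPM (SD, n = 3) gave a log2 fold change of 1.72 ± 0.14 (SE), a 3.30-fold higher level. Klf10 and Klf11 had nearly the same control level in CPM, and Klf10 was the higher of the pair in every NETs-treated library.

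Klf16 (ENSMUSG00000035397.8; chr10:80567124-80577321, minus strand), a repressor that binds GC boxes, had 24.2, 23.1 and 20.8 CPM in control libraries and 43.4, 39.6 and 32.7 CPM after NETs. The groups did not overlap, and replicate 3 was the lowest of the NETs-treated libraries. Means were 22.7 ± 1.75 and 38.6 ± 5.44 CPM (SD, n = 3), with a log2 fold change of 0.77 ± 0.12 (SE), a 1.70-fold higher level.

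Klf9 (ENSMUSG00000033863.2; chr19:23141226-23168134, plus strand), a target of glucocorticoid and thyroid hormone receptors, was the member with lower values in all NETs-treated libraries. It stood at 110.2, 104 and 111 CPM in control libraries and at 61.8, 65.1 and 73.5 CPM after NETs. The gap between the groups was wide, and NETs-treated replicate 3 was nearest to the control. The means were 109 ± 3.82 and 66.8 ± 6.0 CPM (SD, n = 3), and the log2 fold change was -0.70 ± 0.08 (SE), a 1.63-fold lower level.

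Klf13 (ENSMUSG00000052040.10; chr7:63886351-63938915, minus strand), known for sustaining Ccl5 transcription in T cells, had 83.5, 77.2 and 76.3 CPM in control libraries and 76.5, 70.4 and 66.2 CPM after NETs. The groups overlapped through NETs-treated replicate 1, and the means of 79.0 ± 3.92 and 71.0 ± 5.17 CPM (SD, n = 3) were close. Its log2 fold change of -0.15 ± 0.08 (SE) lay short of the threshold. Scaling by library size alone gave -0.23, past the threshold, and a correction for transcript GC content gave 0.02, short of it, so no direction is given for Klf13.

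Klf3 (ENSMUSG00000029178.14; chr5:64803388-64832901, plus strand), whose protein recruits the corepressor CtBP, had 28.9, 28.3 and 28 CPM in control libraries and 35.6, 35.8 and 34.6 CPM after NETs. Both groups were tight and did not overlap, although the shift was small. Means of 28.4 ± 0.483 and 35.4 ± 0.657 CPM (SD, n = 3) gave a log2 fold change of 0.32 ± 0.08 (SE), a 1.24-fold higher level. The overlapping genes Gm20033 and C230096K16Rik had at most 23 counts in any library, against at least 1220 for Klf3.

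**Figure D2:**
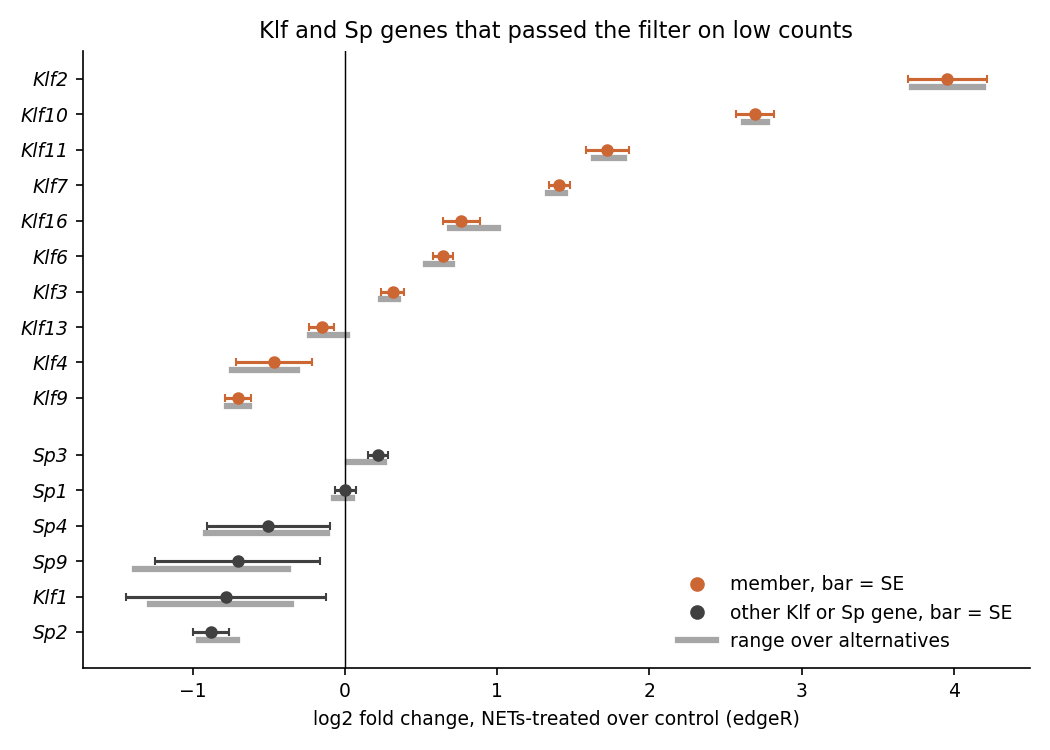
Log2 fold change of NETs-treated over control for the 10 Klf genes (orange) and the other tested Klf and Sp genes (black), with error bars for the SE of edgeR's fit over 3 samples per group and grey bars for the range over the alternatives to the processing. Klf2 at 3.96 and Klf10 at 2.70 stand apart, Klf9 at -0.70 is the lowest of the 10, and the grey bar of Klf13 crosses 0.

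Set against gene length, the members could be compared with each other. Levels here are TMM-scaled CPM per kb of the union of a gene's exons, with n = 3 per group. In control cells Klf6 led with 71.9 ± 0.700 (SD), followed by Klf9 at 22.6 ± 0.793, Klf13 at 10.5 ± 0.520, Klf7 at 8.71 ± 0.458 and Klf16 at 8.49 ± 0.655. Klf2 at 3.30 ± 0.518, Klf3 at 2.53 ± 0.0429, Klf4 at 1.55 ± 0.0290, Klf11 at 1.19 ± 0.165 and Klf10 at 1.06 ± 0.0956 made up the lower end. Klf7 and Klf16 overlapped in their libraries, as did Klf11 and Klf10, and the other neighbours in this order did not. So the control cells were dominated by Klf6 and, well below it, by the SIN3A-binding Klf9.

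In NETs-treated cells Klf6 still led, with 112 ± 8.40 CPM per kb (SD, n = 3). Klf2 came next at 51.3 ± 17, ahead of Klf7 at 23.1 ± 0.547, Klf16 at 14.4 ± 2.03 and Klf9 at 13.9 ± 1.25. The lower end was made up of Klf13 at 9.43 ± 0.686, Klf10 at 6.88 ± 0.476, Klf11 at 3.95 ± 0.110, Klf3 at 3.14 ± 0.0584 and Klf4 at 1.12 ± 0.359. Only the neighbours Klf16 and Klf9 overlapped in this order. Klf2 thus moved from place 6 to place 2, Klf9 from place 2 to place 5, and Klf10 from the last place to place 7, while Klf4 ended last. By the length of the longest coding transcript, Klf3 stood above Klf2 in the control (5.44 against 3.30 CPM per kb) and above Klf11 in NETs-treated cells (6.77 against 4.19), and the overlapping pairs Klf11 and Klf10 in the control and Klf16 and Klf9 in NETs-treated cells changed places.

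The summed level of the 10 Klf genes was 132, 132 and 131 CPM per kb in control libraries and 251, 238 and 229 CPM per kb after NETs. The pool was close to constant among control libraries and larger in every NETs-treated library. Its mean went from 131.7 ± 1.01 to 239.5 ± 11.0 CPM per kb (SD, n = 3), a ratio of 1.82. Klf2 supplied 44.5% of the net increase and Klf6 37.5%, or 82.0% together, and Klf7 supplied 13.4%. Klf10, with its large fold change, supplied 5.40%, since it started from a low level.

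The make-up of the pool differed accordingly. Klf2 took 2.51% ± 0.403 of the summed level in the control and 21.2% ± 6.15 in NETs-treated cells (SD, n = 3), with 26.9%, 22.2% and 14.7% in NETs-treated replicates 1, 2 and 3. Klf6 took 54.5% ± 0.324 in the control and 47.0% ± 5.51 in NETs-treated cells. Its share was thus lower although its level was higher. Klf9 went from 17.1% ± 0.674 to 5.82% ± 0.778 and Klf13 from 7.96% ± 0.352 to 3.94% ± 0.105, while Klf7 went from 6.61% ± 0.313 to 9.68% ± 0.613 and Klf10 from 0.806% ± 0.0789 to 2.88% ± 0.228. Shares of a whole are tied to each other, so that a large gain of Klf2 lowers the shares of the rest.

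**Figure D3:**
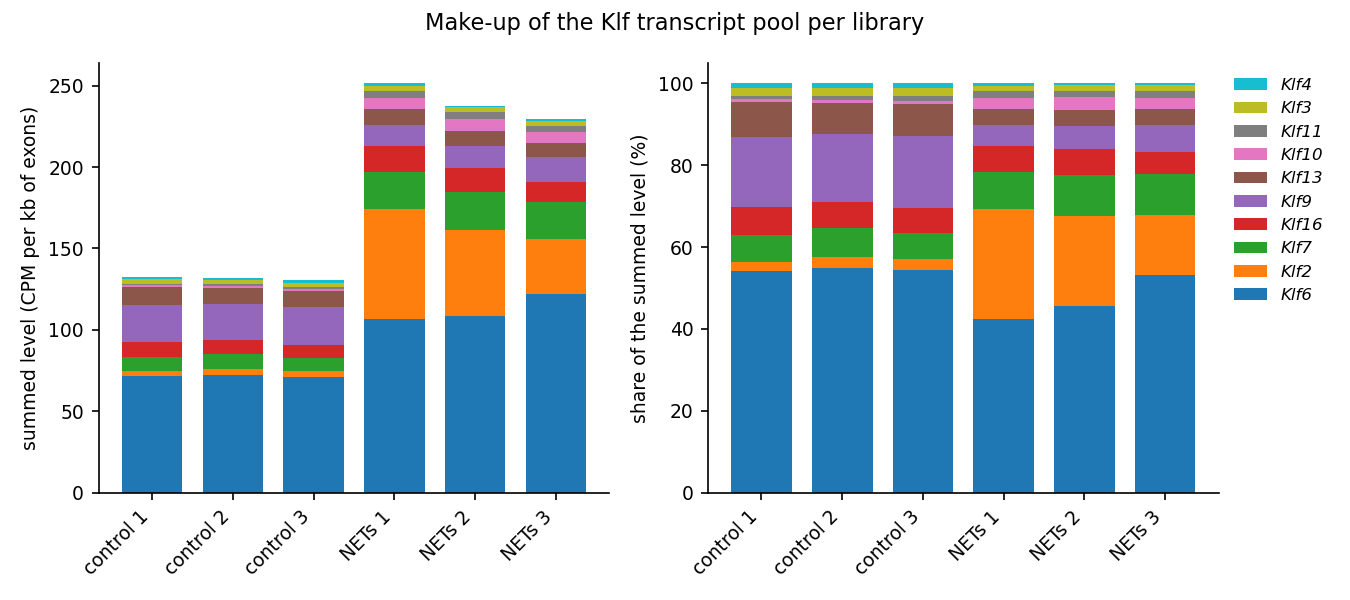
TMM-scaled CPM per kb of exons of the 10 Klf genes, stacked, in each of the 6 libraries (left), and the share of each gene in that sum in percent (right). The control bars on the left end between 131 and 132 and the NETs-treated bars between 229 and 251, with the Klf2 segment growing from under 3% to between 14.7% and 26.9% of the bar.

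The spread between libraries of a group differed from member to member. Over all genes tested the median SD of log2 CPM was 0.12 in the control and 0.20 in the NETs-treated group. For Klf2 the NETs-treated SD was 0.51, above 82.1% of genes tested, and for Klf4 it was 0.43, above 77.6%. Klf3, Klf7 and Klf11 varied little, with SDs of 0.03, 0.03 and 0.04, and for Klf7, Klf10 and Klf11 the control SDs of 0.08, 0.13 and 0.20 were the larger ones. The highest NETs-treated library was 2.01 times the lowest for Klf2, 1.73 times for Klf4 and 1.33 times for Klf16, and 1.14 times for Klf6.

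The order of the NETs-treated libraries was not the same for every member. Replicate 1 held the highest NETs-treated value for 5 members, replicate 2 for 3 and replicate 3 for 2, while replicate 3 held the lowest for 6. The 5 members highest in replicate 1 deviated there from the group mean on the log2 scale by 0.50 for Klf4, 0.45 for Klf2, 0.18 for Klf16, 0.11 for Klf13 and 0.04 for Klf11. The first 4 of these are also the members with the most GC-rich transcripts, at 54.6% for Klf4, 61.6% for Klf2, 60.4% for Klf16 and 55.5% for Klf13, against 42.4% to 49.0% for the other 6. The same tilt was present across the table: the median log2 difference of NETs-treated replicate 1 over replicate 3 was 0.24 for the 4232 genes with at least 54% GC and -0.19 for the 6183 genes under 48%. Between the groups, the median log2 difference of NETs-treated over control was -0.20 for the GC-rich and 0.12 for the GC-poor genes.

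After a correction of each library for transcript GC content, added after seeing the data, the highest NETs-treated library was 1.57 times the lowest for Klf2, 1.51 times for Klf4, 1.10 times for Klf16 and 1.01 times for Klf13. Klf2 and Klf4 thus still varied. The correction did not narrow every spread: the NETs-treated ratio of Klf3 went from 1.04 to 1.10, and the control ratio of Klf2 from 1.35 to 1.49. The log2 fold change was 4.18 for Klf2, 1.00 for Klf16 and 0.53 for Klf6 under this correction. The groups of Klf4 and Klf13 overlapped with the correction as they did without it, and those of the other 8 did not. The source of the tilt with GC was not tested.

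**Figure D4:**
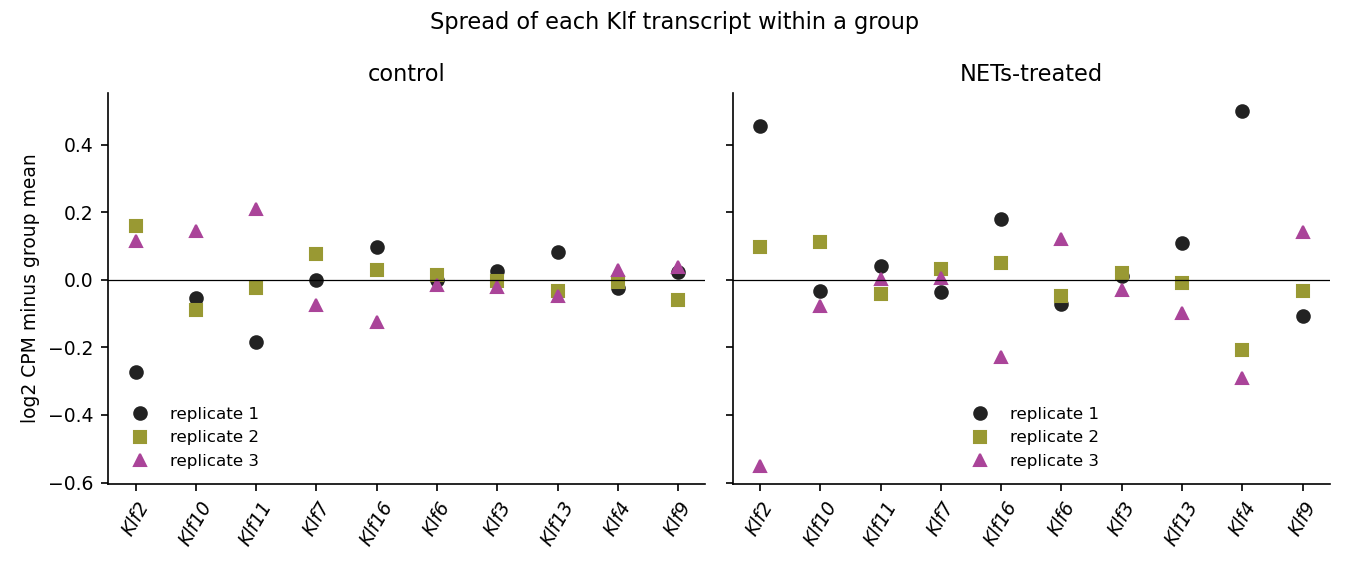
Deviation of log2 TMM-scaled CPM from the group mean for each Klf gene in the 3 control and 3 NETs-treated libraries, before any correction for GC content. Klf2 and Klf4 spread most in the NETs-treated group, with replicate 1 at 0.45 and 0.50 above the mean, and Klf3, Klf7 and Klf11 spread least there.

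The genes themselves also differ in build. The span from first to last base ran from 2.62 kb for Klf2 to 92.8 kb for Klf7, with Klf4 (5.32 kb), Klf6 (8.91 kb) and Klf10 (9.24 kb) also short and Klf9 (26.9 kb), Klf3 (29.5 kb) and Klf13 (52.6 kb) longer. Klf16 (10.2 kb) and Klf11 (11.5 kb) lay between these. The shortest member, Klf2, and the longest, Klf7, were both higher after NETs. Whether gene span bears on the differences was not tested. ATTTA, the core of AU-rich elements that can shorten the life of an mRNA, was counted after the stop codon of the longest coding transcript. Klf7 held 18 in 6266 bases, a number reached by 1.32% of 20945 coding genes. Klf9 held 8 (10.4% of coding genes have as many), Klf3 and Klf6 held 7 each (13.1%), and Klf10, Klf11 and Klf16 held 4 each (27.6%). Klf13 held 3 (35.3%), and Klf2 and Klf4 held 1 each, which is the median of coding genes and is reached by 64.8%. These stretches ran from 737 bases in Klf2 to 6266 in Klf7. Per kb, Klf7 held the most at 2.87, followed by Klf10 (2.68), Klf9 (2.48), Klf6 (2.25), Klf16 (2.23), Klf3 (1.87), Klf11 (1.72), Klf2 (1.36), Klf4 (1.02) and Klf13 (0.58). Klf9, with a lower level after NETs, stood between Klf10 and Klf6, whose levels were higher. Whether ATTTA bears on the differences was not tested.

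The Klf and Sp genes outside the 10 members share the zinc fingers and bind similar DNA. Klf5, Klf8, Klf12, Klf14, Sp5 and Sp8 had no count in any library, which at 3 counts over all 6 libraries allows up to 0.0118 CPM and covers counting error only. Klf15 had 10 counts in control replicate 2 alone, Klf17 had 7 in control replicate 2 and 15 in NETs-treated replicate 2, Sp6 had 4 each in NETs-treated replicates 1 and 2, and Sp7 had 7 in NETs-treated replicate 3. Of these 16 genes 6 were tested, of which 1 rose, 1 fell and 4 did not pass, with a median log2 fold change of -0.60. The Klf genes with more than traces of counts are thus the 10 members and Klf1, the erythroid factor, which had 16, 22 and 36 counts in control libraries and 22, 14 and 4 after NETs. The Klf1 groups overlapped, and its log2 fold change of -0.78 ± 0.66 (SE) did not pass the test (edgeR adjusted p = 0.350).

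Sp1, the general activator that competes with KLF proteins for GC boxes, was at 15.9, 15.2 and 16.1 CPM per kb in control libraries and 15.4, 15.2 and 16.8 CPM per kb after NETs. Its groups overlapped, with a log2 fold change of 0.00 ± 0.07 (SE; edgeR adjusted p = 0.988). Sp2 fell, from 5.93, 5.77 and 5.74 CPM per kb to 3.09, 3.55 and 2.84 CPM per kb, with a log2 fold change of -0.88 ± 0.12 (SE; edgeR adjusted p = 0.000379) and groups that did not overlap. The antisense gene D030028A08Rik overlaps Sp2 and had 85 to 265 counts per library against 379 to 889 for Sp2. The sources used here do not say whether counting used strand, so reads of the pair may not be parted, and Sp2 is uncertain to that extent.

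Sp3, a factor that can activate or repress, had 21.9, 23.0 and 22.2 CPM per kb in control libraries and 25.2, 26.9 and 25.8 CPM per kb after NETs. It rose by a log2 fold change of 0.22 ± 0.06 (SE; edgeR adjusted p = 0.0213) without overlap of the groups. This call was lost in 6 of 16 alternatives, with adjusted p from 0.0553 to 0.852: library size only, the GC correction (log2 fold change 0.02), and leaving out any 1 control library or NETs-treated replicate 2. Sp4 (-0.50 ± 0.40, adjusted p = 0.327) and Sp9 (-0.70 ± 0.54, adjusted p = 0.306) did not pass edgeR's test and their groups overlapped. Cir1, a gene on the opposite strand, overlaps Sp9 and had 1148 to 1438 counts per library against 14 to 68 for Sp9. Reads of that pair may not be parted either, so Sp9 is uncertain. On the scale of CPM per kb, Klf6 was well above Sp1 in both groups, and Klf2 went from below Sp1 in the control to above it in every NETs-treated library.

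The genes that act with or upstream of KLF proteins were looked at in lists chosen with earlier results of these data known. Beside the counts below, 25.5% of all genes tested rose and 27.2% fell by edgeR. Of 15 corepressor and coactivator genes 5 rose, 5 fell and 5 did not pass, with a median log2 fold change of -0.08. Sap30, a subunit of the SIN3 complex that Klf9, Klf10, Klf11, Klf13 and Klf16 use, fell from 183 ± 11.6 to 54.8 ± 5.98 CPM (SD, n = 3; log2 fold change -1.74 ± 0.10, edgeR adjusted p = 2.97e-06). The scaffold Sin3a rose from 64.8 ± 3.61 to 132 ± 8.95 CPM (1.03 ± 0.08, adjusted p = 1.77e-05 in edgeR), and its histone deacetylase Hdac1 rose from 70.9 ± 6.62 to 133 ± 8.37 CPM (0.91 ± 0.09, adjusted p = 6.10e-05). The subunits of this complex therefore differed in direction. Ctbp1, the partner of Klf3, fell from 109 ± 1.90 to 73.4 ± 2.02 CPM (-0.57 ± 0.07, edgeR adjusted p = 0.000144). The acetyltransferase genes Kat2b (-0.52 ± 0.10, adjusted p = 0.00205) and Crebbp (-0.36 ± 0.10, adjusted p = 0.0195), on which activator KLF proteins draw, also fell by edgeR. Without control replicate 1, 3 rose and 3 fell, 3 rose without control replicate 2 or with library size only, and 3 fell without NETs-treated replicate 2. The Crebbp call was lost, with adjusted p of 0.0713 and 0.0804, without control replicate 1 or NETs-treated replicate 2.

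MEF2 factors under the kinase ERK5 are the best known inducers of Klf2 and Klf4. Of 12 genes of this arm 2 rose, 6 fell and 4 did not pass, with a median log2 fold change of -0.54. Mef2c fell from 98.1 ± 14.8 to 21 ± 4.51 CPM (SD, n = 3; -2.22 ± 0.17, edgeR adjusted p = 1.50e-05). Map2k5, which encodes the kinase that activates ERK5, fell from 41.9 ± 1.23 to 23.4 ± 4.33 CPM (-0.84 ± 0.13, adjusted p = 0.000768), and Hdac9, a deacetylase that represses MEF2, fell from 22 ± 0.886 to 0.945 ± 0.359 CPM (-4.54 ± 0.24, edgeR adjusted p = 2.24e-06). So both an activator and a repressor of this arm fell. Mef2b fell (-1.16 ± 0.37, adjusted p = 0.0288) and the upstream kinase Map3k2 (0.41 ± 0.11, adjusted p = 0.0137) and Mef2d (0.26 ± 0.09, adjusted p = 0.0447) rose in edgeR, and these 3 calls were lost in 5, 1 and 8 of 16 alternatives. For Map3k2 the loss came without control replicate 1 (adjusted p = 0.0584), so without it 0 genes of the arm passed as higher, and 1 did without control replicate 2 or 3 or NETs-treated replicate 1 or 2. The MEF2 motif in the printed Klf2 promoter is the site of this family, and whether the fall of Mef2c bears on Klf2 was not tested.

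FOXO factors are the other known route to Klf2, and they are held out of the nucleus by PI3K signalling. Of 7 genes of this arm 2 rose, 2 fell and 3 did not pass, with a median log2 fold change of -0.13. Foxo1 rose from 40.9 ± 4.39 to 86.6 ± 4.67 CPM (SD, n = 3; 1.08 ± 0.10, edgeR adjusted p = 3.31e-05) and Foxo3 from 76.5 ± 3.21 to 146 ± 11.7 CPM (0.93 ± 0.08, adjusted p = 2.98e-05). Both were higher in every NETs-treated library, as Klf2 was, and the groups did not overlap for 62.4% of all genes tested. Whether Foxo1 or Foxo3 bears on Klf2 was not tested. Foxo4 fell (-0.46 ± 0.10, adjusted p = 0.00382), and so did the PI3K subunit gene Pik3cd (-0.31 ± 0.06, edgeR adjusted p = 0.00333), whose call was lost with the GC correction (adjusted p = 0.288).

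TGF-beta induces Klf10 and Klf11 through SMAD factors. Of 9 genes of this arm 5 rose, 2 fell and 2 did not pass, with a median log2 fold change of 0.37. Genes of SMAD antagonists and of some SMAD effectors rose. Among the antagonists, Skil rose from 13.3 ± 0.993 to 44.3 ± 7.94 CPM (SD, n = 3; 1.74 ± 0.14, edgeR adjusted p = 2.33e-05), Tgif1 from 107.5 ± 6.54 to 212 ± 21.8 CPM (0.98 ± 0.09, adjusted p = 4.46e-05) and Smad7 from 5.55 ± 0.162 to 8.67 ± 0.892 CPM (0.64 ± 0.15, adjusted p = 0.00744). The effector genes that rose, named after their values were seen, were Smad4 (0.62 ± 0.08, edgeR adjusted p = 0.000246) and Smad3 (0.37 ± 0.09, adjusted p = 0.00767). The effector gene Smad2 (-0.22 ± 0.09, edgeR adjusted p = 0.0674) and the ligand gene Tgfb1 (-0.43 ± 0.17, adjusted p = 0.0567), also named afterwards, did not pass. Both were lower in every NETs-treated library. The receptor gene Tgfbr2 fell from 145 ± 5.22 to 59.7 ± 1.65 CPM (-1.28 ± 0.07, edgeR adjusted p = 2.14e-06). Tgfbr1 fell too (-0.31 ± 0.11, adjusted p = 0.0365), a call lost in 6 of 16 alternatives. Receptor genes thus fell, while the effector genes Smad3 and Smad4 rose and Smad2 did not pass. Whether any of these bears on the higher Klf10 and Klf11 was not tested. The number of this arm that fell was 4 with library size only and with the replicate number as a block, and 1 without any 1 control library or without NETs-treated replicate 2.

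Glucocorticoid receptor induces Klf9 along with other genes. Of 6 genes of this arm 3 rose, 2 fell and 1 did not pass, with a median log2 fold change of 0.02. Tsc22d3, a glucocorticoid-induced gene, rose from 78.7 ± 1.09 to 161 ± 11.2 CPM (SD, n = 3; 1.03 ± 0.07, edgeR adjusted p = 9.98e-06), opposite in direction to Klf9. The receptor gene Nr3c1 rose slightly (0.40 ± 0.10, adjusted p = 0.00764), as did the clock gene Per1 (0.40 ± 0.10, edgeR adjusted p = 0.0108), whose call was lost without control replicate 3 (adjusted p = 0.0534). Zbtb16 fell from 5.52 ± 1.10 to 1.45 ± 0.443 CPM (-1.93 ± 0.30, edgeR adjusted p = 0.000743) and Fkbp5 fell (-0.36 ± 0.08, adjusted p = 0.00451). Genes known to share this regulator with Klf9 therefore went both ways.

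KLF proteins are short-lived and are marked for breakdown by ubiquitin ligases. Of 7 such ligase genes 2 rose, 3 fell and 2 did not pass, with a median log2 fold change of -0.09. Vhl, a ligase component tied to KLF4, rose from 19.2 ± 1.45 to 44.6 ± 1.33 CPM (SD, n = 3; 1.22 ± 0.09, edgeR adjusted p = 1.17e-05), and Fbxw7, tied to KLF2, rose (0.47 ± 0.09, adjusted p = 0.00288). Wwp1, a ligase of KLF2, fell from 102 ± 10.6 to 54.9 ± 7.48 CPM (-0.89 ± 0.12, edgeR adjusted p = 0.000317), and Smurf1 fell (-0.56 ± 0.10, adjusted p = 0.00193). Protein levels were not measured.

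**Figure D5:**
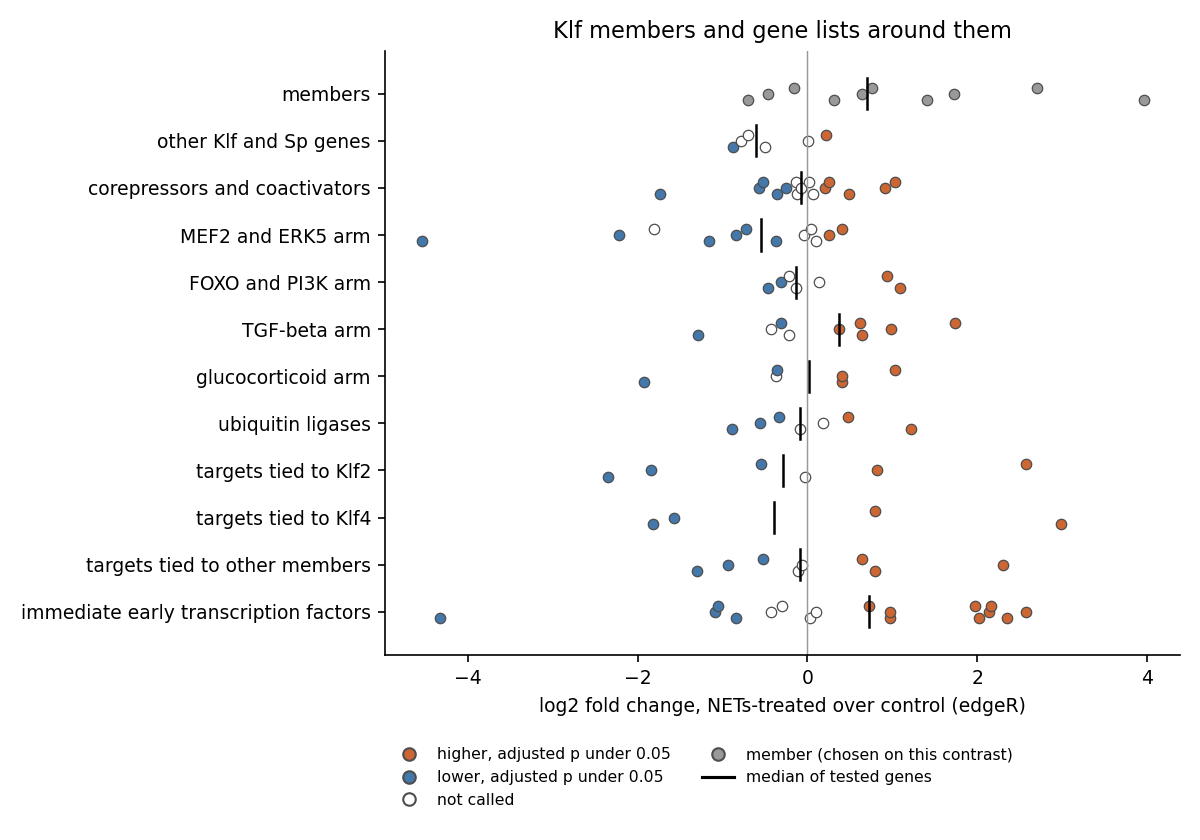
Log2 fold change of NETs-treated over control for the 10 Klf genes, the other tested Klf and Sp genes and the tested genes of each list, 1 point per gene, orange for genes that passed edgeR's test at an adjusted p under 0.05 as higher, blue as lower and open for the rest. The 10 Klf genes are grey and carry no test colour, and black lines are medians. No list had all of its points on 1 side of 0.

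Genes that have been tied to single members as targets were also read. For Klf2, 6 of 7 such genes were tested, of which 2 rose, 3 fell and 1 did not pass, with a median log2 fold change of -0.29. Thbd, the anticoagulant thrombomodulin that KLF2 induces in endothelium, rose from 24.7 ± 0.483 to 146.5 ± 2.05 CPM (SD, n = 3; 2.57 ± 0.07, edgeR adjusted p = 1.07e-07), and the cell cycle inhibitor Cdkn1b rose (0.81 ± 0.11, adjusted p = 0.000376). The chemokine receptor gene Cxcr4 fell from 25.2 ± 1.13 to 7.06 ± 0.819 CPM (-1.84 ± 0.12, edgeR adjusted p = 7.59e-06). Targets known from other cell types were thus found on both sides.

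For Klf4, 4 of 7 genes were tested, of which 2 rose and 2 fell. Cd14, the co-receptor for endotoxin, rose from 691 ± 6.08 to 5442 ± 85.7 CPM (SD, n = 3; 2.98 ± 0.05, edgeR adjusted p = 6.71e-09), and Cdkn1a, a cell cycle inhibitor tied to Klf4 and Klf6 alike, rose from 49.9 ± 2.79 to 86.8 ± 4.23 CPM (0.80 ± 0.08, adjusted p = 5.41e-05). Genes of alternative activation fell: Arg1 from 189 ± 3.76 to 53.5 ± 2.27 CPM (-1.82 ± 0.07, edgeR adjusted p = 4.06e-07), and Mrc1 from 0.979 ± 0.0868 to 0.326 ± 0.0842 CPM (-1.58 ± 0.44, adjusted p = 0.0155), the latter a call lost without control replicate 3 (adjusted p = 0.0633). Klf4 itself was at 3.42 ± 1.10 CPM in these cells.

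For genes tied to Klf3, Klf6, Klf9, Klf10 or Klf13, 8 of 9 were tested, of which 3 rose, 3 fell and 2 did not pass, with a median log2 fold change of -0.09. C1qtnf12 and Lgals3 are among the genes that KLF3 represses. C1qtnf12 rose from 0.799 ± 0.0242 to 3.94 ± 1.39 CPM (SD, n = 3; 2.30 ± 0.33, edgeR adjusted p = 0.000493) and Lgals3 fell from 1264 ± 66.5 to 881 ± 175 CPM (-0.52 ± 0.13, adjusted p = 0.0101), while Klf3 was slightly higher. Klf8, also known as a gene that KLF3 represses, had no count in any library. Hmox1, a stress gene, fell from 328 ± 9.53 to 133 ± 22.3 CPM (-1.30 ± 0.11, edgeR adjusted p = 3.00e-05), and the repressor gene Bcl6 fell from 42.5 ± 0.990 to 22.2 ± 1.53 CPM (-0.94 ± 0.09, adjusted p = 4.00e-05).

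The genes whose levels went most nearly with those of Klf2 were found by the root mean square difference of log2 CPM from the control mean, over the 6 samples and 8650 named genes with at least 10 CPM on average. These were Odc1 (0.34), Rab11fip1 (0.35), Ccrl2 (0.42), Procr (0.44) and Phlda1 (0.48), and the search chose them for this likeness. Odc1 had 480 to 493 CPM in control libraries and 6518 to 6560 CPM after NETs, so it matched the size of the Klf2 difference but not its spread. Procr, the endothelial protein C receptor gene, had 863, 673 and 577 CPM in NETs-treated replicates 1, 2 and 3 from 61.1 to 72.2 CPM in the control. It shared with Klf2 the order of the NETs-treated libraries, as did Rab11fip1 and Ccrl2. For Klf9 the nearest were Sntb2 (0.046), Vamp1 (0.048), Aldh3a2 (0.049), Dhodh (0.050) and Zfand5 (0.051). These distances are not scaled to the size or spread of a gene's difference, so those for Klf9 and Klf2 are not compared. Sntb2 had 382, 383 and 376 CPM in control libraries and 217, 229 and 245 CPM after NETs. Like Klf9 it had replicate 3 nearest to the control, a likeness that the search over all 6 samples favours.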

How the data were processed

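Per the labels' protocols, RNA from 3 NETs-treated and 3 control samples was sequenced with strand-specific libraries. HISAT2, DESeq2 and the builds mm10 and rn6 are named, with no roles or versions, in the submitters' processing notes. How reads were counted, with which annotation and strand setting, is not given in the sources used here. The authors deposited 1 table with raw counts per gene, per the file headers. Normalised counts, a signal made by dividing each count by 1 size factor per library, the authors' log2 fold changes and the authors' p-values are further columns of that deposited table and served as an alternative.

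The tests used the raw counts in edgeR 4.0.16 (R 4.3.3): TMM scaling, edgeR's filter on low counts (minimum count 10, minimum total 15; 15272 genes kept, with 99.94% of counts), quasi-likelihood test, two-sided, no covariates, Benjamini-Hochberg adjustment over all genes tested, threshold 0.05. The biological coefficient of variation was 18.5%. The procedure was tested on simulated data. Samples were grouped by the treatment in the labels. PCR reads are not independent molecules, so the limit given for genes at 0 concerns counting error alone.

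The members and lists were chosen with earlier results of these data known. The text names all members, the other Klf and Sp genes with a count, up to 4 called genes of each list with the largest change, up to 2 called against the list's majority, and the 5 genes nearest in pattern to Klf2 and to the lowest member. Genes named only as overlapping, marker or uncounted genes stand outside that rule. The values of 1 gene that this rule names are not reported here. Fam132a was found under its RefSeq name C1qtnf12. Of the 55401 identifiers 54349 match GENCODE M21 (GRCm38) with their version, all 10 members among them; coordinates, lengths and GC content come from it. Promoters are RefSeq's (GRCm38.p6), cut to end before both annotations' starts where printed. A planned description of proteins was not run.

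Alternatives were DESeq2's size factors, upper-quartile scaling, library size only, limma-voom (limma 3.58.1), DESeq2 1.42.0 with its Wald test, no filter, CPM of at least 1 in at least 3 samples, a replicate block, each sample left out, and the authors' table. A lowess offset (span 0.3) on transcript GC, for 99.88% of genes tested, another gene length and leaving samples out of the summed level were added after seeing the data.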

Additional observations from a re-analysis of the deposited data

How the results depend on the processing

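Over the alternatives, 3265 to 4400 genes were higher and 3451 to 4636 lower, all within 1.5 times of the reported counts, and 7 members were higher in each. With library size only, 2 members were lower and 0 Klf or Sp genes outside the members were higher, a number that was also 0 with the GC correction. Leaving out 1 replicate gave 1 to 2 members lower and 0 to 1 Klf or Sp genes outside the members higher. The cause was not tested. With library size only the median log2 fold change of all genes was -0.09, and 42.0% of called genes were higher, against 48.4%. Of 320 list counts under alternatives, 23 moved by more than 1.5 times. Klf1, Sp9 and Mrc1 had no value under the stricter filter. By the longest coding transcript, Klf6 took 52.6% of the summed control level. With the replicate block 3896 genes were higher and 4209 lower, with 7 members higher and 1 lower, and the block ended the call of Mef2b (adjusted p = 0.0511) and of no other gene chosen by the rule, and outside the TGF-beta arm, where 4 genes fell with it, it moved no count by over 1.5 times. Deviations of samples with the same number correlated by 0.124, 0.0271 and 0.0671, not all over 0.1, so the numbers were not taken as pairs, although each library correlated best with its own number. Genes near 1 CPM, such as Mrc1 and C1qtnf12, rest on few counts.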

Other observations

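Immediate early transcription factors, which like many Klf genes answer quickly to stimuli, were read as a list chosen with earlier results of these data known. Of 18 genes 17 were tested, of which 9 rose, 4 fell and 4 did not pass, with a median log2 fold change of 0.73 beside -0.02 over all genes. Of all genes tested 25.5% rose and 27.2% fell. Egr1 had no count in any library. The NR4A orphan receptor genes rose: Nr4a1 went from 13 ± 2.72 to 58.4 ± 8.96 CPM (SD, n = 3; log2 fold change 2.16 ± 0.18, edgeR adjusted p = 2.12e-05), and Nr4a3, at 0.360 ± 0.297 CPM in the control, reached 1.83 ± 0.371 CPM (2.34 ± 0.58, edgeR adjusted p = 0.00886), with a log2 fold change of 3.24 without control replicate 1. Ier3, a survival gene, rose from 192 ± 4.24 to 1142 ± 71.1 CPM (2.57 ± 0.07, edgeR adjusted p = 1.03e-07). Against these, the zinc finger gene Egr3 fell from 23.7 ± 2.15 to 1.19 ± 0.110 CPM (-4.32 ± 0.15, edgeR adjusted p = 3.43e-07), and Egr2 fell from 7.07 ± 1.08 to 3.40 ± 0.440 CPM (-1.06 ± 0.20, adjusted p = 0.00229). The stress factor gene Atf3 fell from 199 ± 7.88 to 93.9 ± 3.84 CPM (-1.09 ± 0.07, edgeR adjusted p = 4.91e-06). The groups did not overlap for any of these named genes, which the rule picked from called genes, and for 62.4% of all genes tested.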
